A study of Arabidopsis thaliana with 204 samples.

Results

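The comparison concerned the lower (abaxial) and the upper (adaxial) side of the Arabidopsis thaliana petiole in white light (WL). It used the 64 of 204 samples in the series that were labelled as abaxial petiole (32) or adaxial petiole (32), kept in WL and harvested at 8 time points from 60 to 300 min, with 4 replicates per side and time point. All plants were Col-0 wild type, grown for 28 days in 9 h of light and 15 h of dark at 20 °C and 70% humidity, in white light of 130 to 150 µmol m-2 s-1 with a red to far-red ratio of 2.0, and received no further treatment in WL. The sides of the proximal petiole were harvested separately, from pooled leaves for each replicate, so that each sample is a strip of mixed tissue and not a sorted cell type. A second set of 64 petiole samples, from plants whose leaf tip received far-red light (FRtip, red to far-red ratio of 0.05 at the tip), was used only to see whether a side difference recurred in other libraries. Photosynthesis genes are mentioned here only as a reference, and the other functions are described.

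A leaf is flat and faces the light with its upper side because its sides are given different identities early in its growth. On the adaxial side, class III homeodomain-leucine zipper (HD-ZIP III) factors and the AS1-AS2 complex act, and on the abaxial side the KANADI, YABBY and AUXIN RESPONSE FACTOR (ARF) 3 and 4 factors act. The sides hold each other back through small RNAs: miR165 and miR166 cut HD-ZIP III transcripts on the abaxial side, while trans-acting small RNAs from TAS3 cut ARF3 and ARF4 transcripts on the adaxial side. In the petiole, the same axis sets the xylem above the phloem in the bundle, and unequal growth of the lower and upper side lifts or lowers the leaf.

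The small RNA sequences and their target sites are shown because they join the members of the pathway whose levels are given below, and not because the small RNAs were measured. The libraries came from poly-A RNA, and the precursors of miR165 and miR166 were all below the level needed for the test. Mature sequences at 9 miRNA loci carry the same seed (bases 2 to 8, in capitals), and they fall into the following pair of sequences, which differ late in the molecule.
miR165a-3p: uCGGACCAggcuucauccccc
miR166a-3p: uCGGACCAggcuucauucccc
In the coding sequence of each of the 5 HD-ZIP III genes, the stretch closest to the complement of miR166 is given 5′ to 3′, with bases identical to the complement of miR166a-3p in capitals.
REV: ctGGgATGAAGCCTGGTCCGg
ATHB8: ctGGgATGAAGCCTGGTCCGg
PHB: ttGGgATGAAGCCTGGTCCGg
PHV: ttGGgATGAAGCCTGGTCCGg
CNA: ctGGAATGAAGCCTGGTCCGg
REV, ATHB8, PHB and PHV each have 4 mismatches to the full complement and CNA has 3. Positions in the RefSeq genome TAIR10.1 are chr5:24398787-24398898 on the plus strand for REV, and on the minus strand chr4:15866872-15866974 for ATHB8, chr2:14642530-14642666 for PHB, chr1:10799330-10799445 for PHV and chr1:19412976-19413085 for CNA. Each site is exonic and is split by an intron, so the span in the genome is longer than the 21 bases shown. The stretch of TAS3 with the best antisense match to ARF3 and ARF4 is at chr3:5862205-5862225 on the plus strand.
TAS3: tttcttgaccttgtaagaccc
Bases of the ARF3 and ARF4 coding sequence identical to its complement are in capitals below, at chr2:14325941-14325961 and chr5:24309507-24309527, both on the minus strand.
ARF3: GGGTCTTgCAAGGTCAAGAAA
ARF4: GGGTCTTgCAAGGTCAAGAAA
The ARF sites are identical to each other and have 1 mismatch to the TAS3 stretch.

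Read totals of the WL libraries ran from 1472089 to 4364837 on the abaxial side and from 1232378 to 3901155 on the adaxial side. Depth therefore overlapped between the sides, with a higher abaxial median (2843256 against 2271227 reads), and the share of reads from organelle genes was 3.2% abaxially and 4.08% adaxially at the median. Along the first principal component, which held 29.6% of the variance, every abaxial sample lay between -60.2 and -15.3 and every adaxial sample between 29.8 and 40.4, so that no library stood with the other side. The spread along this axis was wider on the abaxial side. Values below are normalised read counts, that is reads divided by a size factor for each library. A side difference is the mean over the 8 time points of log2(normalised count + 1), abaxial minus adaxial, with its standard error (SE), and it is positive where the abaxial side was higher. Genes were called at an adjusted p below 0.05 (limma, Benjamini-Hochberg over all genes tested), and values given in a row for a side are the lowest, the median and the highest of its 32 samples. Of 19664 genes tested, 6379 (32.4%) were higher on the abaxial and 6880 (35%) on the adaxial side, so a share of called members near these values is close to that of all genes. The median difference over all genes was -0.02 and the called genes differed by 0.37 at the median, in either direction. A difference of 1 is a doubling of the normalised count + 1. At least this was reached by 355 genes (1.81%) on the abaxial and 577 genes (2.93%) on the adaxial side. The 32 samples of both sides did not overlap for 174 (0.885%) and 381 (1.94%) genes. In bulk tissue of this kind, fewer cells of a type and less RNA per cell cannot be told apart.

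Factors of adaxial identity were mostly higher on the adaxial side and those of abaxial identity on the abaxial side. The sum of the 4 adaxial side markers was 177 to 393 abaxially and 341 to 468 adaxially, so that it overlapped between the sides. The sum of the 6 abaxial side markers was 475 to 749 abaxially and 256 to 407 adaxially and separated every library. AS2, a LOB-domain factor that acts with AS1 on the upper side, had the largest adaxial excess, at 1.66, 5.23 and 17.37 abaxially and 12.5, 22.1 and 37.9 adaxially. The sides overlapped only at their margins, and the difference was -1.95 ± 0.11 (adjusted p = 4.50e-22). REV, the HD-ZIP III factor best known for vascular and meristem patterning, was at 34.9, 70.3 and 116 abaxially and 86.7, 119 and 146 adaxially, with a difference of -0.78 ± 0.077. ATHB8, the HD-ZIP III member of the procambium, was at 22.5, 61.5 and 139.7 and 73.0, 91.9 and 127, a difference of -0.61 ± 0.11, and the abaxial samples were spread over the wider range. PHB differed by -0.53 ± 0.08, and AS1, the MYB partner of AS2, by -0.54 ± 0.06. PHV (-0.12 ± 0.049, adjusted p = 0.034) and CNA (-0.17 ± 0.056, adjusted p = 0.0071) carry nearly the same miR166 site as REV and PHB, but their side differences were much smaller. Neither is firm, because PHV was no longer called without replicate 3 or 4 (-0.095 in both) and CNA without replicate 4 (-0.12). The small ZPR proteins bind HD-ZIP III factors and block them, and their transcripts did not move together. ZPR3 (-0.66 ± 0.15) and ZPR4 (-0.33 ± 0.11) were lower abaxially and ZPR1 higher (0.20 ± 0.046), while ZPR2 was not called (-0.23 ± 0.19, adjusted p = 0.28) and ZPR4 was not called without replicate 3 (-0.13).

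On the abaxial side, YAB1 (also called FILAMENTOUS FLOWER), a YABBY factor of the lower leaf side, was at 16.5, 28.3 and 52.3, against 0, 4.77 and 10.2 adaxially. No sample of one side reached the range of the other, and the difference was 2.61 ± 0.17 (adjusted p = 1.31e-19). KAN1, the leading KANADI factor, was at 49.4, 85.8 and 123 and 18.5, 25.7 and 34, again without overlap, a difference of 1.68 ± 0.065. YAB5 (1.87 ± 0.066) and YAB2 (1.13 ± 0.055) did not overlap between the sides either, whereas YAB3 (0.66 ± 0.059) did. The KANADI genes did not move together, because KAN3 was barely higher abaxially (0.19 ± 0.062, and 0.088 and not called without replicate 2) and KAN2 was higher on the adaxial side (-0.28 ± 0.083). ARF4 was at 209.8, 286 and 369 abaxially and 131, 177 and 266 adaxially, a difference of 0.71 ± 0.037, and ARF3 differed by 0.42 ± 0.051. The TAS3 transcript, whose small RNAs match both ARF genes, was on the opposite side, at 19.2, 58.5 and 99.7 abaxially and 69.8, 119 and 177 adaxially. Its difference was -1.19 ± 0.10 (adjusted p = 1.71e-14), and it was chosen for mention after its values were seen. In all, 1 of 11 members tested was higher abaxially and 9 adaxially, with a median difference of -0.53 for the adaxial list, and 8 of 9 members tested were higher abaxially and 1 adaxially, with a median difference of 0.71 for the abaxial list. The CIN-type TCP factors, which close the dividing phase of leaf cells, were mostly adaxial: 1 of 7 members tested was higher abaxially and 6 adaxially, with a median difference of -0.48. TCP10 (-0.76 ± 0.085) and TCP3 (-0.48 ± 0.063) are examples, and TCP5 and TCP17, which have low counts, reached -3.01 and -2.24.

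**Figure D1:**
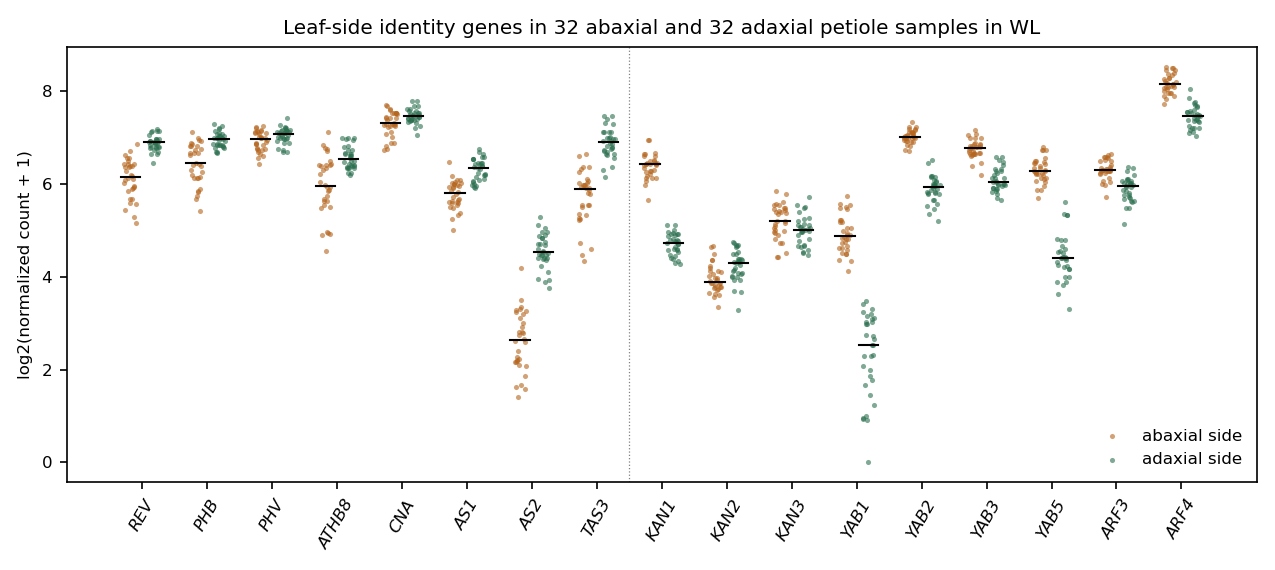
Log2(normalised count + 1) of the leaf-side identity genes and TAS3, 1 point per WL sample, with abaxial and adaxial samples side by side and a black line at each median. AS2, REV and TAS3 sit higher adaxially, YAB1, KAN1, YAB5 and YAB2 separate without overlap towards the abaxial side, and PHV and CNA overlap almost entirely.

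Stomatal genes had the largest adaxial shift of the 45 lists. Stomata arise from a lineage that SPCH, MUTE and FAMA drive in turn, with SCRM2 and ICE1 as partners, while TMM, the ERECTA-like receptors and EPF peptides space them. Of 24 members tested, 21 were higher on the adaxial and 2 on the abaxial side, with a median difference of -1.64. FAMA, which ends the divisions of the guard mother cell, was at 3.79, 21.1 and 50.4 abaxially and 71.3, 89.4 and 110.0 adaxially, so the sides did not overlap (difference -2.04 ± 0.13). MYB60, a guard cell factor needed for wide opening of the pore, was at 1.37, 8.19 and 16.6 and 25.6, 45.1 and 67.3, also without overlap (difference -2.58 ± 0.14). Lineage genes with few reads followed: BASL, a polarity protein of the dividing cell, differed by -2.24 ± 0.12 and TMM by -2.1 ± 0.14, while SPCH (-2.28 ± 0.14), MUTE (-1.87 ± 0.12) and EPF2 (-2.23 ± 0.16) went the same way. STOMAGEN, a peptide that the mesophyll releases to raise stomatal number, was at 19.2, 27.6 and 50.3 abaxially and 55.5, 79.4 and 109 adaxially, again without overlap (-1.45 ± 0.059). Exceptions were FLP (0.17 ± 0.055) and GORK (0.33 ± 0.077), the outward potassium channel, both slightly higher abaxially, and the anion channel SLAC1 was not called (0.03 ± 0.11). The summed level of the guard cell markers was 36.8 to 105 abaxially and 143 to 219 adaxially, with 4 of the 5 markers called adaxially and SLAC1 not called.

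Wax and cuticle genes took the other direction. 24 of 31 epidermal and cuticle genes were higher on the abaxial side and 3 on the adaxial side, with a median of 0.65. CER4, which makes the primary alcohols of the wax, was at 32.2, 62.8 and 93.1 abaxially and 3, 6.99 and 12.2 adaxially. The ranges did not overlap, and the difference was 2.95 ± 0.11. MAH1, which oxidises wax alkanes, differed by 2.37 ± 0.12, and the elongases of very long fatty acids KCS1 and CER6 by 1.26 ± 0.086 and 1.1 ± 0.068. ATML1, a homeodomain factor of the epidermal layer itself, was at 182, 264 and 359.9 and 106, 136 and 173 without overlap, a difference of 0.89 ± 0.058. The 3 genes on the adaxial side were SHN2 (-2.19 ± 0.15), WSD1 (-1.87 ± 0.17), a wax ester synthase, and the MYB factor MYB16 (-0.83 ± 0.083). The summed level of the 5 epidermal markers, all abaxial, was 3516 to 7710 abaxially and 2079 to 3249 adaxially. Whether a larger share of epidermis in the abaxial strip has a part in these differences was not tested. Trichome genes split, with 5 members higher abaxially and 6 adaxially of 13. TTG2 (1.61 ± 0.088) and ETC1 (2.1 ± 0.16) were abaxial, GL2 (-0.40 ± 0.06) was adaxial, and of the small MYB inhibitors of trichome fate, TRY (-2.48 ± 0.13) and ETC2 (-2.47 ± 0.16) were adaxial although ETC1 and CPC (0.88 ± 0.15) were not. The trichome marker sum was 367 to 759.6 abaxially and 404 to 819 adaxially, with GL1 at 0 in most samples.

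The list of flavonoid and anthocyanin enzymes and regulators was the most strongly abaxial, with 12 of 15 genes higher abaxially, 3 adaxially and a median of 1.1. Among the abaxial members, the late enzymes, which turn dihydroflavonols into coloured anthocyanins, differed most. DFR, at the entry of this branch, was at 124, 477 and 1422 abaxially and 22.1, 93.1 and 249 adaxially, a difference of 2.24 ± 0.15 although the ranges overlapped. GSTF12, which brings anthocyanins to the vacuole, was at 205, 514 and 976 and 37.1, 85.3 and 239, a difference of 2.45 ± 0.10. LDOX (2.11 ± 0.12), the glycosyltransferase UF3GT (2.48 ± 0.16) and the malonyltransferase AT5MAT (2.39 ± 0.14) were similar, while CHS (1.21 ± 0.11) and F3H (0.58 ± 0.098), which serve all flavonoids, differed less. Of the regulators, TT8 (1.71 ± 0.12) and MYB75 (1.1 ± 0.12), which switch on the late genes, were abaxial. The adaxial exceptions all belong to the colourless flavonol branch: FLS1, the flavonol synthase, was at 1.32, 4.65 and 18.3 abaxially and 9.56, 26.8 and 41.2 adaxially, a difference of -2.25 ± 0.10, and its MYB activators MYB111 (-2.6 ± 0.14) and MYB12 (-1.23 ± 0.16) were also adaxial. FLS1 overlapped between the sides, whereas MYB111 did not. The branch was not uniform, because UGT78D1, which adds a sugar to flavonols, was slightly abaxial (0.28 ± 0.062).

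**Figure D2:**
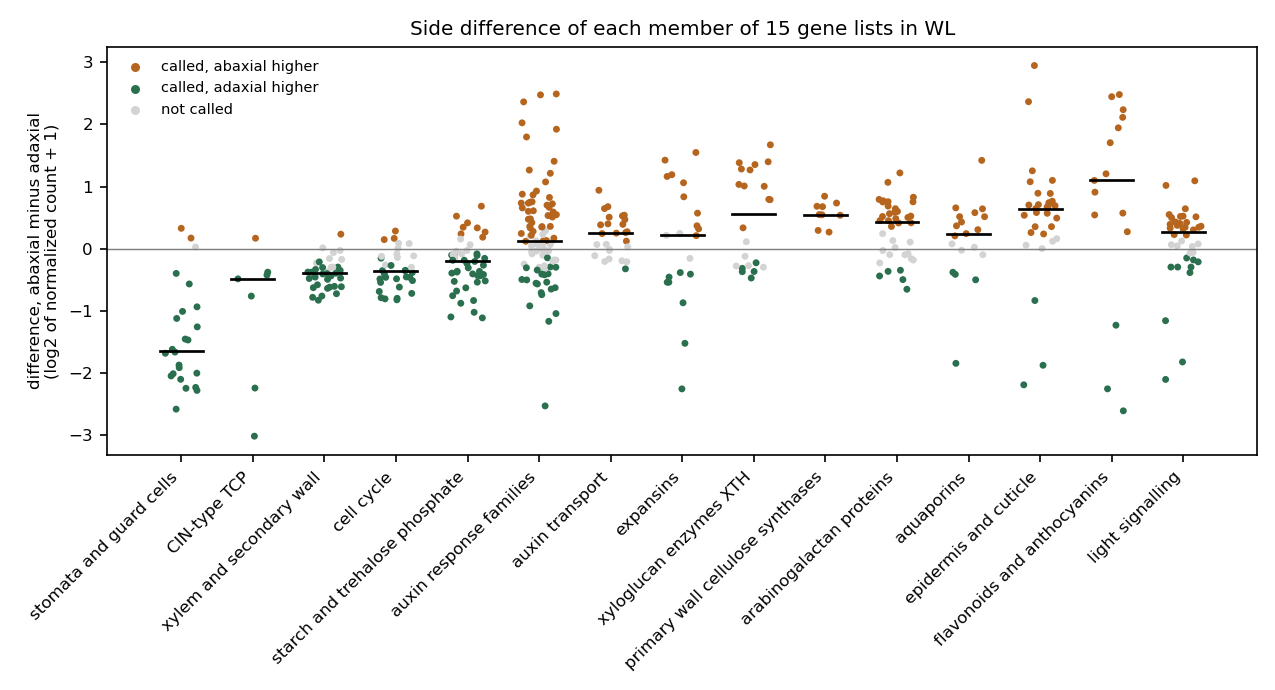
Side difference (abaxial minus adaxial, log2 of normalised count + 1) of the tested members of 15 gene lists, 1 point per gene, with called genes in colour, genes not called in grey and a black line at the list's median. Nearly all stomatal points lie to the adaxial side, whereas the flavonoid points fall into a large abaxial and a small adaxial group.

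Vascular and division genes leaned to the adaxial side. Of 35 xylem and secondary wall genes, 25 were higher adaxially and 1 abaxially (median -0.39), and all 7 VND genes, the NAC factors that switch on vessel formation, were adaxial (median -0.62). VND5 was at 2.69, 16.6 and 36.5 abaxially and 12.4, 25.1 and 42.9 adaxially, a difference of -0.78 ± 0.13. The programmed-death nuclease BFN1 differed by -0.83 ± 0.14 and the metacaspase MC9 by -0.76 ± 0.14. The ranges of all of these overlapped. The summed level of the 7 xylem markers, of which 6 were adaxial, was 158 to 758 abaxially and 436 to 777 adaxially, and the part of bundle tissue in these differences was not tested. Phloem genes had a similar, smaller lean: 1 of 18 members tested was higher abaxially and 11 adaxially, with a median difference of -0.31. SUC2, which loads sucrose into companion cells, was the exception (0.59 ± 0.072), whereas PP2-A1 (-0.65 ± 0.12) and the phloem proton pump AHA3 (-0.69 ± 0.09) were adaxial. The phloem marker sum was 288 to 825 abaxially and 574 to 820.0 adaxially, with 4 adaxial and 1 abaxial of the 6 markers tested and SWEET12 at 0 in most samples. In the procambium list, 2 of 8 members tested were higher abaxially and 5 adaxially, with a median difference of -0.42. The peptide gene CLE41, which phloem cells express to keep the cambium dividing, was at 119.9, 180.1 and 263 abaxially and 61.9, 93.2 and 114 adaxially without overlap (1.01 ± 0.049), opposite to its target factor WOX4 (-0.55 ± 0.10). Lignin synthesis was divided: 6 of 16 members tested were higher abaxially and 9 adaxially, with a median difference of -0.22. 4CL1, an entry enzyme, was at 88.8, 132 and 194 and 217, 255 and 334 without overlap, a difference of -0.97 ± 0.065, and HCT differed by -0.73 ± 0.053.

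Cell cycle genes were mostly adaxial: 3 of 33 members tested were higher abaxially and 21 adaxially, with a median difference of -0.35. The B-type cyclins of mitosis were adaxial in 7 of 8 cases (median -0.46). CYCD1;1, a cyclin of the entry into the cycle, was at 105, 144 and 179.8 abaxially and 209, 249 and 312 adaxially without overlap (-0.78 ± 0.044). CYCD3;1 differed by -0.82 ± 0.12, the inhibitor KRP1 by -0.79 ± 0.088 and ANT, which prolongs growth by division, by -0.60 ± 0.093. Ribosomal protein genes moved the same way in small steps, with 242 of 300 higher adaxially and 13 abaxially (median -0.29). That list was taken by product text and includes plastid proteins. Its largest difference was that of AT1G23410, a ribosomal protein S27a and ubiquitin gene with few reads (-1.01 ± 0.10), followed among the named members by the plastid proteins RFC3 (-0.97 ± 0.035), PRPL35 (-0.90 ± 0.033) and RPL9 (-0.87 ± 0.034). In 56 photosynthesis genes, the reference for green tissue, 56 were adaxial with a median of -0.76, and the sum of the 5 mesophyll markers was 20523 to 40809 abaxially and 39629 to 66788 adaxially. The part of mesophyll content in the adaxial lists was not tested.

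Wall expansion genes were the counterpart on the abaxial side. Primary wall cellulose is spun at the plasma membrane by CESA1, CESA3 and CESA6-type subunits with the helpers KOR1 and COB, and all 9 of 9 genes of this list were abaxial (median 0.55). CESA1 was at 895, 1103 and 1467 abaxially and 569.7, 712 and 829 adaxially without overlap, a difference of 0.68 ± 0.032. CESA3 (0.74 ± 0.04), KOR1 (0.68 ± 0.03) and COB (0.85 ± 0.038) did not overlap either. Among the XTH enzymes, which cut and rejoin xyloglucan, 12 of 22 members tested were higher abaxially and 5 adaxially, with a median difference of 0.56. XTH4 was at 2633, 3593 and 5315 and 827, 1416 and 2176, a difference of 1.4 ± 0.062, and XTH7 at 565, 818 and 1394 and 143, 265 and 377, a difference of 1.67 ± 0.077, in both cases with every abaxial sample above every adaxial one. XTH9 (-0.47 ± 0.07) and XTH27 (-0.37 ± 0.059) were adaxial. Expansins loosen walls in acid, and here their family divided: 10 of 21 members tested were higher abaxially and 8 adaxially, with a median difference of 0.22. EXPA8 was at 66.2, 126 and 275 abaxially and 27.6, 42.7 and 75.4 adaxially, with overlap (1.55 ± 0.08), and EXPA11 (1.16 ± 0.091), EXPA3 (1.19 ± 0.068) and EXLA1 (1.43 ± 0.083) were also abaxial. Arabinogalactan proteins of the cell surface followed the cellulose genes, since 22 of 38 members tested were higher abaxially and 5 adaxially, with a median difference of 0.44. AGP24 (1.22 ± 0.099), AGP7 (1.07 ± 0.053) and FLA9 (0.83 ± 0.054) are examples, and 10 of 14 fasciclin-like members were abaxial.

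Water channels and proton pumps, which supply the turgor and the acid for growth, were found on both sides. Among the aquaporins, 11 of 19 members tested were higher abaxially and 4 adaxially, with a median difference of 0.25. PIP1;5, a plasma membrane channel, was at 423, 559 and 764 abaxially and 144, 209 and 267 adaxially without overlap, and its difference of 1.42 ± 0.044 had one of the smallest p-values of all genes (adjusted p = 9.49e-32). The vacuolar TIP1;2 differed by 0.58 ± 0.03 without overlap, and 4 of 6 TIP genes were abaxial. The pump list also holds the PP2C.D phosphatases that act on the pumps. In it, 4 of 14 members tested were higher abaxially and 4 adaxially, with a median difference of 0.03. AHA2, a major pump gene, was at 916, 1128 and 1598 and 458, 607 and 981, with slight overlap and a difference of 0.87 ± 0.05.

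Auxin transport genes were mostly abaxial, and more auxin response genes were abaxial than adaxial. Auxin leaves cells through PIN carriers, which the kinases D6PK and PID switch on, and enters through AUX1 and LAX carriers. In this list, 15 of 26 members tested were higher abaxially and 1 adaxially, with a median difference of 0.25. PIN7 was at 382, 539 and 998 abaxially and 306, 389 and 655 adaxially, a difference of 0.51 ± 0.051 with broad overlap. D6PK (0.65 ± 0.048), LAX3 (0.54 ± 0.071), PID (0.53 ± 0.073) and PIN3 (0.26 ± 0.036) followed, and PIN6 (-0.32 ± 0.11) was the adaxial member. Among auxin response genes, 44 of 89 members tested were higher abaxially and 21 adaxially, with a median difference of 0.13, against shares of 32.4% and 35% over all genes. IAA6, a repressor that auxin itself induces, was at 50.5, 82.8 and 184 and 9.74, 21.3 and 36.6 without overlap (2.03 ± 0.096). The SAUR genes, which promote cell elongation, were abaxial in 32 and adaxial in 9 of 57 cases (median 0.36). SAUR3 was at 83.2, 124 and 163 abaxially and 7.63, 21.2 and 33.5 adaxially without overlap (2.49 ± 0.086), and SAUR13 differed by 1.8 ± 0.07. The family was not uniform, because SAUR9 was at 1.78, 7.11 and 26.5 and 25.7, 42.2 and 68.9, a difference of -2.52 ± 0.15 towards the adaxial side. GH3 genes, a family that includes enzymes conjugating auxin to amino acids, were adaxial in 5 of 8 cases and abaxial in 1. The family was taken by gene name and not by substrate. Counts of near-identical SAUR copies, for which the treatment of multi-mapped reads is not given in the sources used here, are uncertain for single genes. Of the 4 auxin synthesis genes that passed the filter on low counts, 2 were adaxial and 1 abaxial, all at low counts.

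Ethylene genes and the list of gibberellin signalling and GASA genes were mainly abaxial, whereas gibberellin synthesis and brassinosteroid genes were divided. GA20OX1, which makes the precursors of active gibberellin, was at 57.1, 95.8 and 159 abaxially and 23.2, 40.1 and 70.2 adaxially, with overlap and a difference of 1.3 ± 0.072. Its step is followed by GA3OX1, which was higher adaxially (-1.89 ± 0.14) at low counts, and in the whole list, 6 of 12 members tested were higher abaxially and 4 adaxially, with a median difference of 0.28. The gibberellin signalling list holds receptors, DELLA repressors and GASA genes together. Among these, 8 of 13 members tested were higher abaxially and 2 adaxially, with a median difference of 0.39. RGL3, a DELLA gene, differed by 1.5 ± 0.17, and GASA14, a gibberellin-responsive gene, was at 364, 911 and 2667 and 113, 264 and 791, with broad overlap (1.71 ± 0.064). GASA6 went the other way (-1.4 ± 0.12). For ethylene, 14 of 18 members tested were higher abaxially and 1 adaxially, with a median difference of 0.38. ACO4, which makes ethylene from its precursor, was at 88.7, 164 and 277 abaxially and 54.4, 78.8 and 105 adaxially, with overlap (1.04 ± 0.073), and ACS4 (0.92 ± 0.18) and EIN2, the central relay of the signal (0.49 ± 0.04), were also abaxial. Brassinosteroid genes were even in number: 12 of 32 members tested were higher abaxially and 12 adaxially, with a median difference of 0.02, and the sign turned without replicate 1 (-0.04) or 2 (-0.02). The hydroxylase ROT3 (-0.94 ± 0.077) was adaxial. The PRE factors, small helix-loop-helix proteins that promote elongation, took opposite sides, with PRE1 (1.81 ± 0.17) and PRE5 (1.66 ± 0.13) abaxial and BNQ2 adaxial, at 3.31, 13.6 and 54.2 abaxially and 60.7, 100.3 and 155 adaxially without overlap (-2.77 ± 0.11).

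**Figure D3:**
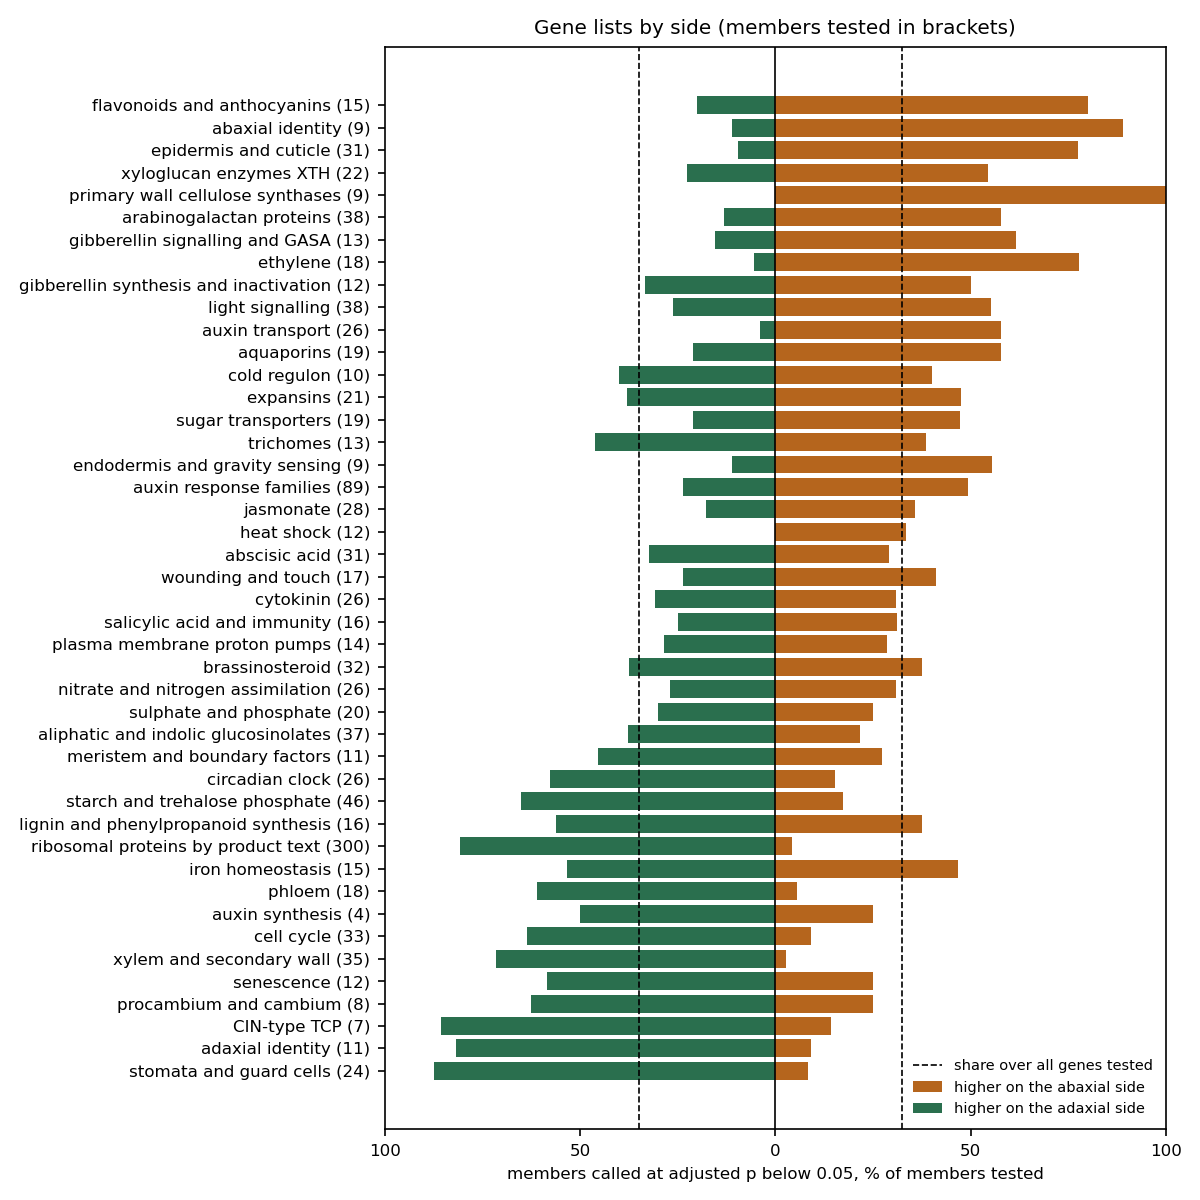
Share of the tested members of each list that were called higher on the abaxial or on the adaxial side, with photosynthesis left out. Dashed lines mark the shares over all genes tested, 32.4% abaxial and 35% adaxial, and bars well beyond them include those for primary wall cellulose synthases, flavonoids and cuticle (abaxial) and for stomata and ribosomal proteins by product text (adaxial).

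Light signalling genes were split by family member. Of 38 genes, 21 were abaxial and 10 adaxial. PIF7, the phytochrome-interacting factor best known for the shade response, was at 17.3, 38.2 and 60.3 abaxially and 89.9, 141 and 199 adaxially without overlap, a difference of -1.82 ± 0.082. The related PIF4 (0.41 ± 0.031) and PIF5 (0.52 ± 0.032) differed in the opposite direction. PKS3, one of the phytochrome kinase substrates, was adaxial without overlap (-2.1 ± 0.11) and HYH, the homolog of the light-response factor HY5, differed by -1.15 ± 0.081. RPT2, a phototropin partner in bending to light, was at 215, 571 and 1010 and 135, 371 and 544, with broad overlap and a difference of 0.64 ± 0.047. Among the endodermis and gravity-sensing genes, 5 of 9 members tested were higher abaxially and 1 adaxially, with a median difference of 0.14. The share called, 66.7%, was close to the 67.4% over all genes. A strongly polar member was IDD16, a zinc finger factor that adjusts auxin and organ angle. It was at 52.1, 80.3 and 147 abaxially and 9.40, 18.5 and 32.9 adaxially without overlap (2.09 ± 0.077). Its relative IDD14 was at 0.45 ± 0.042 and LAZY1 at 0.30 ± 0.075. The endodermis marker sum was 55.2 to 139.8 abaxially and 65.0 to 133 adaxially, with none of the markers called.

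In metabolism and nutrition, most lists were divided between the sides, as were all genes (32.4% abaxial and 35% adaxial). The share called on either side was 57.7% for nitrogen, 55% for sulphate and phosphate and 59.5% for glucosinolate genes. Each was below the 67.4% over all genes. Starch and trehalose phosphate genes were adaxial in 30 and abaxial in 8 of 46 cases, with GBSS1, the granule-bound starch synthase, at -1.09 ± 0.083 and APL1 at -0.75 ± 0.03. Sugar transporters leaned abaxially by number: 9 of 19 members tested were higher abaxially and 4 adaxially, with a median difference of 0.18. A difference of at least 1 was reached by 3 members on the adaxial side and by 0 on the abaxial side. SWEET1, a glucose transporter, was among these 3, at 2.65, 9.61 and 29.3 abaxially and 52.8, 81.7 and 122 adaxially without overlap (-2.90 ± 0.15). In nitrogen assimilation, 8 of 26 members tested were higher abaxially and 7 adaxially, with a median difference of -0.03. NIA1, a nitrate reductase, differed by -1.61 ± 0.055, and GLU1 (-0.88 ± 0.041) and GS2 (-0.73 ± 0.038), the chloroplast enzymes of ammonium assimilation, were also adaxial. For sulphate and phosphate, 5 of 20 members tested were higher abaxially and 6 adaxially, with a median difference of -0.06, and the sulphate transporter SULTR3;3 was at 27.1, 55.1 and 116 abaxially and 10.8, 19.6 and 33.3 adaxially, with slight overlap (1.5 ± 0.089). Iron genes were divided, with 7 abaxial and 8 adaxial of 15 and a median difference of -0.30. The sign of that median turned when a mean of at least 10 was asked for. FRO7, the ferric reductase of the chloroplast, was at 0, 1.66 and 12.8 and 11, 23.2 and 43, with slight overlap (-3.01 ± 0.20), and FRO6 (-2.12 ± 0.16) and the ferritin gene FER3 (-0.95 ± 0.051) were also adaxial, whereas NAS1, which makes the iron chelator nicotianamine, was abaxial (1.13 ± 0.13). Glucosinolate genes were divided, with 8 abaxial and 14 adaxial of 37. The myrosinase genes TGG1 and TGG2, which cleave glucosinolates in myrosin cells and guard cells, were adaxial. TGG1 was at 358, 1477 and 2570 abaxially and 2954, 3804 and 5214 adaxially without overlap (-1.55 ± 0.13), and TGG2 differed by -1.36 ± 0.13.

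Among genes outside the lists, the widest differences belonged partly to genes of unknown function. AT1G04660, a glycine-rich protein gene, was at 26.2, 53.5 and 92.8 abaxially and 0, 1 and 4.78 adaxially, so that few or no reads were found on the adaxial side. Its difference of 4.89 ± 0.14 was the most abaxial of all named genes. AT2G34655, an uncharacterised gene, was at 123, 184 and 291 and 10.7, 19 and 34.8 (3.23 ± 0.096), and MLP168 (3.3 ± 0.18), the defence peptide gene THI2.2 (2.28 ± 0.12) and the transporter-like AT5G61520 (2.24 ± 0.15) followed, all without overlap. On the adaxial side, AT1G13650, also uncharacterised, was at 1.08, 8.87 and 57.4 and 78.4, 236 and 371 without overlap (-4.55 ± 0.24). AT3G28270 (-4.39 ± 0.26) and AT3G28220 (-4.29 ± 0.29) have neighbouring locus numbers and were both adaxial. ELI3-1 (cinnamyl alcohol dehydrogenase 7) was at 0, 1.93 and 13.5 and 29.3, 48.8 and 65.5 without overlap (-4.02 ± 0.22), and MSRB6 (-3.81 ± 0.22), CYP706A6 (-3.39 ± 0.19), GER3 (-3.25 ± 0.16), AT2G29290 (-3.57 ± 0.21) and AT1G14250 (-3.36 ± 0.24) completed the group. LOX2, the chloroplast lipoxygenase at the start of jasmonate synthesis, was at 0.94, 10.4 and 107 abaxially and 35.7, 107 and 305 adaxially, with overlap (-3.23 ± 0.31), while of the 28 jasmonate genes 10 were abaxial, a share close to that over all genes, and 5 adaxial. The carbonic anhydrase genes CA1 (-3.57 ± 0.15) and CA2 (-3.36 ± 0.15) serve green tissue. Of the genes with the smallest p-values, SBPASE (-1.108 ± 0.033) and DRT112 (-1.110 ± 0.035) likewise belong to photosynthetic carbon fixation and electron transport. FBP (-1.66 ± 0.051), also with one of the smallest p-values, was adaxial as well.

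Few side differences were called as changing over the time course. Fitted at each time point, between 2142 (160 min) and 3289 (60 min) genes were abaxial and between 2401 (100 min) and 3446 (180 min) adaxial, with a median SE of 0.18 per time point. The side by time interaction was called for 18 genes (0.0915%), with 1278 genes at an unadjusted p below 0.05, and the number was 0, 5, 1 and 0 without replicate 1, 2, 3 and 4, so that these genes rest on all replicates. PRE6 (KIDARI), a further PRE factor, had the smallest interaction p (adjusted p = 4.14e-04). At 60 min its replicates were at 33, 35.1, 14.6 and 24 abaxially and 92.9, 85.4, 76.4 and 102 adaxially, and at 300 min at 174, 122, 155 and 181 and 96.8, 88.9, 95.7 and 112. Its difference thus went from -1.77 to 0.67, from an adaxial to an abaxial excess. GATA2, a factor of light and brassinosteroid response, went from 1.97 to -0.27 (adjusted p = 0.013), and ASN2, an asparagine synthetase, from 0.90 to -0.10. On the log2 scale, the difference of the kelch repeat gene AT5G43190 widened from 0.77 to 2.58, NIA1 from -0.95 to -1.94 and TCP14, a growth factor gene, from 0.24 to 1. The CTP synthase gene emb2742 (-0.69 to 0.44) and AT3G50560 (-0.37 to 1.09) changed sign between these times.

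**Figure D4:**
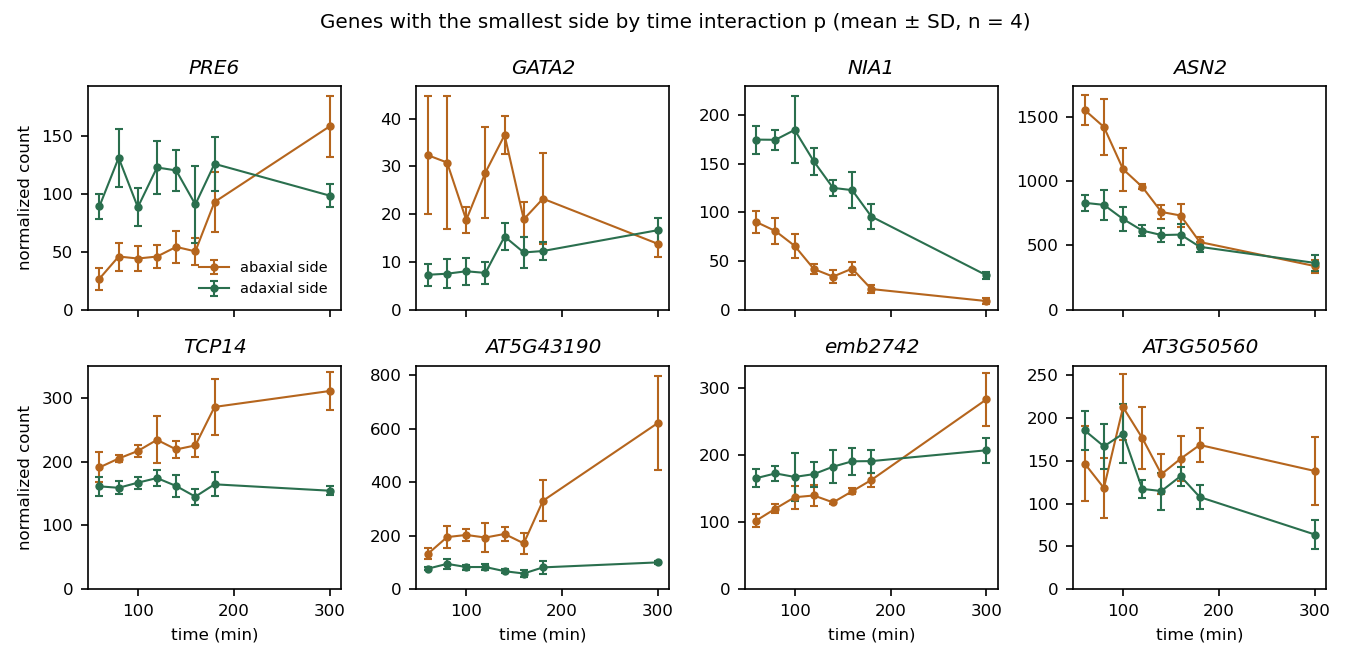
Normalised read counts (mean ± SD, n = 4) of the 8 genes with the smallest side by time interaction p on the abaxial and adaxial side in WL, against time from 60 to 300 min. The lines of PRE6 cross, the gap of AT5G43190 widens and that of ASN2 and GATA2 closes, while the counts of NIA1 fall on both sides, reaching 8.73 ± 2.90 on the abaxial side at the last time point against 35.3 ± 3.8 on the adaxial.

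The same contrast in FRtip, on samples that share none of the WL libraries, gave 6303 abaxial (32%) and 6420 adaxial (32.6%) genes of 19716. Of 13227 genes called in WL and tested in FRtip, 12998 (98.3%) had the same direction and 11225 (84.9%) were called in that direction. With a difference of at least 1 in WL, 927 of 928 genes were called again the same way. For AS2 the FRtip difference was -1.46 ± 0.14, for YAB1 2.35 ± 0.13, for FAMA -1.85 ± 0.12, for CER4 2.78 ± 0.12 and for DFR 2.30 ± 0.17, and none of these was called as different from its WL value. The test of the difference between the treatments called 142 genes (0.721%), of which 7 differed by at least 1. Named genes among the 142 were PRE6 (WL minus FRtip -0.97 ± 0.12), BNQ2 (-0.74 ± 0.17), ARR15 (0.58 ± 0.13), AT5G43190 (-0.44 ± 0.10), NCED4 (0.43 ± 0.11) and emb2742 (-0.42 ± 0.06). BNQ2 was adaxial in both, at -2.77 ± 0.11 in WL and -2.03 ± 0.13 in FRtip, whereas PRE6 was at -0.93 ± 0.081 in WL and, not called, at 0.04 ± 0.083 in FRtip.

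**Figure D5:**
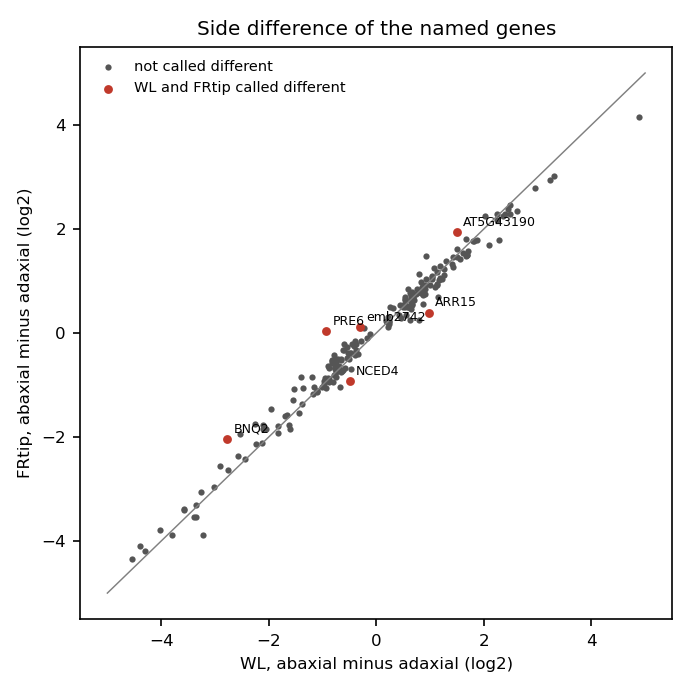
Side difference (abaxial minus adaxial, log2 of normalised count + 1) of the named genes in WL on the x axis and in FRtip on the y axis, with the line of equality. Points lie along the line from AT1G13650 to AT1G04660, and the genes in red, among them PRE6 and BNQ2, differed between the treatments.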

How the data were processed

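RNA was measured in separately harvested abaxial and adaxial petiole strips by strand-specific poly-A sequencing. According to the submitters' processing notes, the authors used FastQC, STAR, Picard, HTSeq and DESeq with the TAIR10 build, and no versions are given. Whether counting used strand and how multi-mapped reads were treated are not given in the sources used here. The deposited signal values are read counts divided by a size factor per sample (33602 loci), and 100% of the values came out as whole reads within 0.01 reads.

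Normalised counts were tested with limma (version 3.58.1 in R 4.3.3) on log2(value + 1), for genes with a mean of at least 1 over the 64 WL samples, with side by time cell means and Benjamini-Hochberg adjustment. Pseudocount addition understates differences of genes with low counts. The count test on the recovered reads with edgeR (4.0.16) was an alternative. The scripts were tested on simulated data.

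The members and lists were chosen with earlier results of these data known. Genes named in the text were the 12 largest per direction, up to 4 per list with a mean of at least 10, all leaf-side identity members, the 8 with the smallest interaction p and the 6 with the smallest p. TAS3, and further list members outside this rule (such as SPCH, MUTE, TCP5, MYB12, PIF4, SLAC1, WRKY40 and GA3OX1), were chosen after their values were seen. Gene names came from the RefSeq table of TAIR10.1 and sequences from that genome. Sites were found by the best ungapped match to the longest coding sequence. Replicates were said to be biological. No pair among 192 within-group pairs agreed within sampling noise (lowest mean chi-square per gene 1.54). Other settings tried were the pseudocount, the filter, centring, rescaling, the model and leaving out each replicate.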

Additional observations from a re-analysis of the deposited data

Results flagged for a closer look

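Of the groups of 4 samples (8 genes with a side by time interaction, by side and by each of 8 time points), 3 held a sample far from the others, and chance gives about 1 in 20 groups. The samples were PRE6 on the adaxial side at 120 min, at 157, AT5G43190 on the abaxial side at 120 min, at 276, and ASN2 on the adaxial side at 60 min, at 737 normalised reads.

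The side difference changed over the time points in 8 named genes, with adjusted interaction p-values (limma) of 0.000414 for PRE6, 0.00232 for AT5G43190, 0.00262 for emb2742, 0.00400 for ASN2, 0.0132 for both GATA2 and AT3G50560, 0.0143 for NIA1 and 0.0235 for TCP14.

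Between WL and FRtip, the side difference differed in 6 named genes by the test of the difference itself. WL minus FRtip was -0.97 for PRE6, -0.74 for BNQ2, -0.44 for AT5G43190 and -0.42 for emb2742, and 0.58 for ARR15 and 0.43 for NCED4, on the log2 scale.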

How the results depend on the processing

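The 932 genes with a difference of at least 1 were called in the same direction in 930 to 932 cases under every alternative but a filter at a mean of 10, where 592 were, since fewer genes are tested. The number with at least 1 fell from 355 to 210 on the abaxial and from 577 to 310 on the adaxial side with a pseudocount of 5, and to 334 on the adaxial side with the mean of at least 10. Without each replicate in turn, the counts ran from 5894 to 6082 (abaxial) and 6064 to 6784 (adaxial), at a difference of at least 1 from 323 to 394 and 560 to 614, and in FRtip from 5725 to 6079 and 5482 to 6342. The interaction count of 18 genes was 30 with edgeR, 44 with a pseudocount of 5, 1 at an adjusted p below 0.001, 0 to 5 without a replicate and 51 with a replicate block. Of 2952 values of named genes under the alternatives, 2930 kept their side and call, 22 lost the call and none reversed. Of 584 list medians under the alternatives, 4 changed sign, in 3 lists: brassinosteroid genes as given above, and iron homeostasis (0.11) and senescence (0.12) with the mean of at least 10, where members are lost. No member of the auxin synthesis list was left at that filter.

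With the replicate block, 6509 and 6982 genes were called in WL and 6479 and 6571 in FRtip. Same-numbered samples of both sides deviated together with r from -0.065 to 0.26 (median 0.18), over 0.1 in 24 of 32 pairs and best with their own number in 27, and as no source says that the numbers pair the samples, they were not treated as pairs. Low counts limit the stomatal lineage and trichome genes, whose differences move with the pseudocount.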

Other observations

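Hormone and stress lists that were not described above were mostly divided by member, as were all genes (32.4% abaxial and 35% adaxial). In cytokinin genes, 8 of 26 members tested were higher abaxially and 8 adaxially, with a median difference of 0.04. LOG1, which activates cytokinin, was at 2.71, 14.9 and 35.1 abaxially and 18.3, 45.6 and 79.2 adaxially (-1.53 ± 0.10). ARR15 (0.98 ± 0.098) and ARR6 (0.54 ± 0.058), feedback inhibitors of the signal, were abaxial. Both belong to the A-type ARR family, in which 4 of 8 members tested were abaxial and 2 adaxial. For abscisic acid, 9 of 31 members tested were higher abaxially and 10 adaxially, with a median difference of 0.06. The receptor genes PYL5 (1.18 ± 0.13) and PYL4 (0.51 ± 0.059) were abaxial. The synthesis gene ABA1 (-0.69 ± 0.033) was adaxial, as was NCED4 (-0.49 ± 0.071). Within the cold regulon, COR15A was at 139.5, 201.1 and 783 and 297, 448 and 1670 (-1.17 ± 0.063) and COR15B differed by -2.43 ± 0.18, a close copy of it, while COR47 was at 675, 1087 and 2051 and 336, 553 and 1237 and so abaxial (0.93 ± 0.054). The immunity genes PR5 (-1.7 ± 0.11) and PR2 (-1.43 ± 0.20) were adaxial and NPR3 (0.67 ± 0.051) and SAG101 (0.57 ± 0.065) abaxial.

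The heat shock list held 1 strongly abaxial member, HSFA7A, at 18.23, 38 and 69.6 abaxially and 6.96, 11.7 and 25 adaxially (1.68 ± 0.12). Of its 12 members tested, 4 were abaxial, 0 adaxial and 8 not called. The abaxial share was thus near the 32.4% over all genes. Among touch and wound genes, 7 of 17 members tested were higher abaxially and 4 adaxially, with a median difference of 0.05. WRKY18 (1.03 ± 0.10), TCH3 (0.68 ± 0.069) and XTH22 (0.80 ± 0.099) were abaxial, and WRKY40 (-0.45 ± 0.13), WRKY53 (-0.40 ± 0.075), TZF10 (-0.36 ± 0.092) and JAZ10 (-0.45 ± 0.19) adaxial. Clock genes leaned adaxially (15 of 26, against 4 abaxially), with PRR9 (-0.66 ± 0.046) and ELF3 (-0.51 ± 0.063) as examples. In the senescence list, 3 of 12 members tested were higher abaxially and 7 adaxially, with a median difference of -0.41, which turned to 0.12 when a mean of at least 10 was asked for. Its members include the chlorophyll breakdown genes NYC1 (-0.63 ± 0.048) and NYE1 (-0.38 ± 0.049), both adaxial, and SAG21 (0.90 ± 0.16), which was abaxial.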
